A study of Mus musculus with 22 samples.

Results

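The genes of glutamate uptake and glutamine synthesis were followed in single cultured mouse astrocytes that had been classified by their calcium response to EtOH. The 9 genes were chosen by symbol from the table of raw counts: the high-affinity glutamate transporters Slc1a2, Slc1a3 and Slc1a1, the neutral amino acid exchangers Slc1a4 and Slc1a5, glutamine synthetase (Glul), the glutamine carriers Slc38a3 and Slc38a1, and glutamate dehydrogenase (Glud1). They were 9 of 23453 symbols, of which 17479 had a read in some cell. Of those, 12719 had a read in at least 5 of the 22 cells and could be compared between response types, and all 9 genes were among them.

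Astrocytes take up the glutamate that neurons release, with carriers that use the sodium gradient across the membrane. Inside the cell glutamine synthetase joins glutamate to ammonia, and the glutamine leaves through SLC38 carriers to be turned back into transmitter by neurons. Glutamate dehydrogenase opens the other route, in which glutamate is oxidized in the mitochondrion. Slc1a3 (GLAST) is the carrier of immature and cultured astrocytes, whereas Slc1a2 (GLT-1) becomes the main carrier of the mature forebrain and is induced in culture by contact with neurons.

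All 22 cells were astrocytes from primary cultures of the cortex of C57BL/6 mouse pups of age P0 to P1, shaken and treated with cytosine arabinoside to remove other cells, and deprived of serum on the day before imaging. Every cell, NR cells included, had been loaded with a calcium dye and exposed to EtOH, and the response to EtOH was scaled to the calcium signal that ATP caused at the end of the experiment. The response was labelled S-type (slow rise and decay, 6 cells), T-type (transient, 6 cells), M-type (mixed, 5 cells) or NR (no response, 5 cells). The labels tie no cell to a pup, culture or time of collection, so each type counted as 1 sample, cell numbers are only names, and the differences below are descriptions of these cells without a test.

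A cell had between 2937786 and 22131076 reads, and the size factors used for scaling ran from 0.183 to 2.31. T-type cells 2 and 3 had the smallest size factors (0.276 and 0.183), so a read weighs most in those cells. T-type cell 3 had the fewest reads, whereas T-type cell 2 had 12564138 reads but the fewest genes with a read (6319). Summed reads of 14 astrocyte markers, with none of the 9 genes among them, lay between 1497 and 7546 CPM (reads scaled to the total of the cell) in all 22 cells. Gjb6 had no read in T-type, M-type or NR cells and Ntsr2 none in T-type or M-type cells. Of markers of other cell types, 14 microglial genes summed to at most 164.4 CPM in NR and 84.3 CPM in T-type cells, where 13 of 14 were detected, and to at most 1.23 CPM in S-type and 2.23 CPM in M-type cells. The 10 neuronal genes reached 2048 CPM in S-type cell 2, mostly as Stmn2, and Slc17a7 was at 0 in every cell. The 9 oligodendrocyte lineage genes ranged from 0.63 to 142 CPM with Sox10 at 0 in every cell, and the 5 endothelial genes reached 35.7 CPM with Cldn5 and Cdh5 at 0. The 8 mural cell and fibroblast genes ran from 31.7 to 7410 CPM, mostly as Acta2, with Rgs5 at 0.

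Of the 7 genes read in every cell, Slc1a2 had the largest differences between response types. Its normalized count (reads divided by the size factor of the cell) ranged in S-type cells from 20.4 over a median of 1577 to 16097, and in T-type cells from 2.59 over a median of 11.1 to 1740. The M-type cells had 425, 8470, 297, 4601 and 561, and the NR cells 7724, 13834, 1455, 398 and 27943. Of the 6 T-type cells, 5 lay below every S-type cell and below every NR cell. T-type cell 3 was the exception, with 1740 from 319 reads, and it was the cell of least depth.

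The mean level of Slc1a2 was 298 ± 706 (SD, n = 6) in T-type, 2871 ± 3615 (n = 5) in M-type, 3610 ± 6165 (n = 6) in S-type and 10271 ± 11255 (n = 5) in NR cells. Each neighbouring pair in this order differed by less than the larger SD and overlapped. The T-type level was 12.1-fold lower than the S-type level (log2 ratio -3.60, 95% interval -3.75 to -3.45, counting error only) and 34.5-fold lower than the NR level (log2 ratio -5.11, -5.26 to -4.96). Without T-type cell 3 these log2 ratios were -8.53 and -10.04, and the cells of the types no longer overlapped. That gap follows from leaving out the only T-type cell that overlapped. How many of all genes part in this way on leaving out 1 cell was not counted. Without S-type cell 4 the T-type to S-type value was -1.90, and without NR cell 5 the T-type to NR value was -4.30. S-type and M-type levels were also under the NR level, with log2 ratios of -1.51 and -1.84, which became -0.70 and -1.03 without NR cell 5, -3.21 without S-type cell 4 and -2.80 without M-type cell 2.

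**Figure D1:**
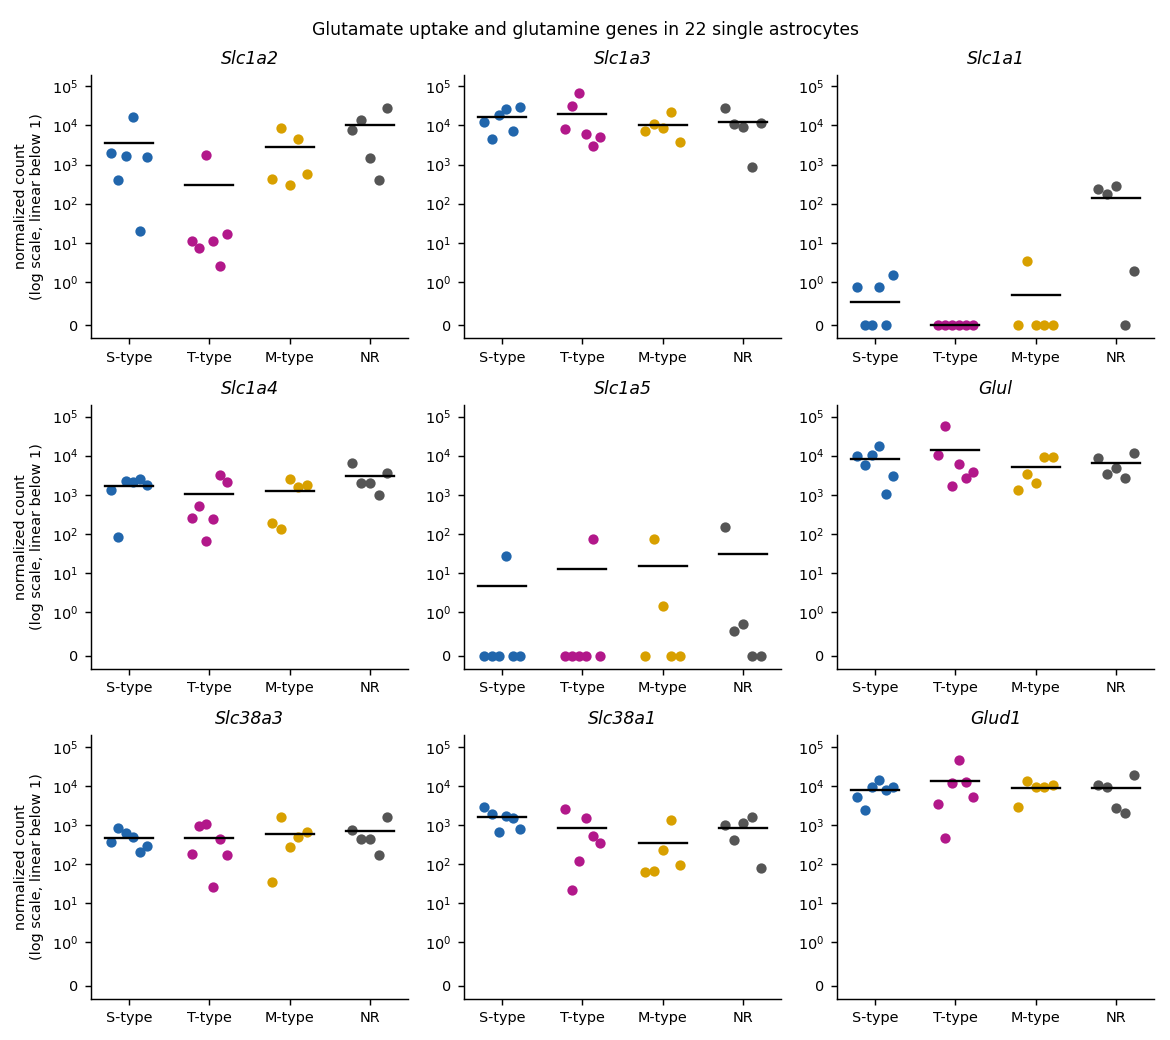
Normalized count of each gene (vertical axis, log scale, linear below 1) in each of the 22 cells, 1 point per cell, grouped by response type on the horizontal axis, with a bar at the mean of the type. For Slc1a2, 5 of 6 T-type points lie under all S-type and NR points. Slc1a3, Glul and Glud1 lie at 468 or higher in every cell, and Slc1a1 stands above 100 in 3 NR cells only.

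Slc1a3, the other astrocytic glutamate carrier, was detected at a high level in every cell. It ranged in S-type cells from 4475 over 15128 to 30383 and in T-type cells from 3005 over 7172 to 65852, while M-type cells had 7181, 10628, 8351, 22120 and 3734 and NR cells 28591, 11010, 9230, 867 and 11213. The 4 types overlapped throughout. Neighbours in the order of the means (20006 ± 24816 in T-type, 16546 ± 10516 in S-type, 12182 ± 10103 in NR and 10403 ± 7007 in M-type cells) differed by less than the larger SD. The log2 ratio of T-type to NR was 0.72 (0.70 to 0.73) and turned to -0.17 without T-type cell 3, and that of T-type to S-type was 0.27 and turned to -0.61 without the same cell. The T-type to S-type value also depended on the scaling. It was -1.36 with CPM of pooled reads, -0.45 with mean CPM, -0.07 with TMM factors and 0.07 with thinned reads. With medians over cells it was -1.08. The M-type to NR value of -0.23 turned to 0.36 without NR cell 1.

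Within a cell the balance of the pair does not depend on the size factor. Per kilobase of annotated exon, Slc1a2 made up 0.0149 to 1.69% of Slc1a2 plus Slc1a3 in T-type cells (median 0.102%), 0.184 to 28.0% in S-type cells (median 5.53%), 2.26 to 34.1% in M-type cells (median 8.89%) and 9.30 to 61.8% in NR cells (median 22.97%). The highest T-type share was thus under the lowest M-type and the lowest NR share, and it overlapped the range of S-type cells through S-type cell 5 (0.184%). Slc1a2 exceeded Slc1a3 per kilobase in 1 cell, NR cell 5. The amplification starts at the 3′ end of the RNA, so exon length corrects a level only in part. By reads without the length the ranges were 0.0229 to 2.57% in T-type and 13.6 to 71.4% in NR cells. The ratio was not compared with that of other pairs of genes.

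**Figure D2:**
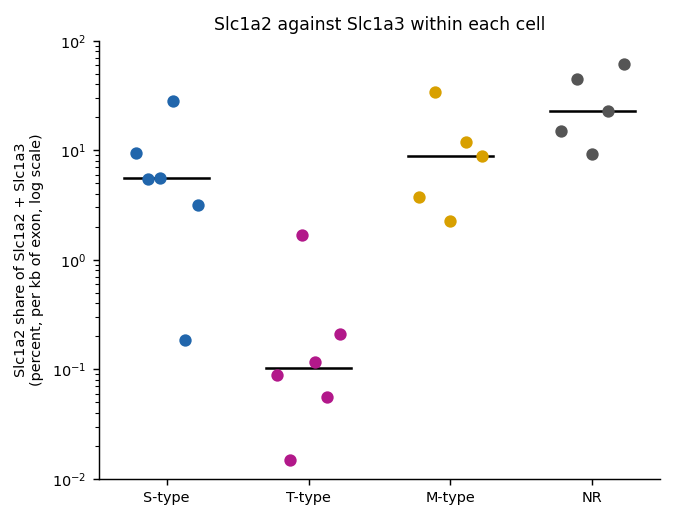
Share of Slc1a2 in the sum of Slc1a2 and Slc1a3 per kilobase of exon (vertical axis, percent, log scale), 1 point per cell, with a bar at the median of each response type. All 6 T-type points are at or below 1.69%, and all 5 NR points are at or above 9.30%.

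Slc1a1 (EAAC1), best known as the glutamate carrier of neurons, was at or near 0 outside NR cells. NR cells 1, 2 and 3 had 240.4, 176.4 and 279.7, from 396, 311 and 389 reads, while NR cell 4 had no read and NR cell 5 had 2 reads. The S-type cells had 4 reads in all, the M-type cells 5 reads, all in M-type cell 2, and the T-type cells none. With the T-type level set to a floor of 3 reads over the type, it was 225-fold lower than the NR level of 139.7 ± 132. This fold depends on the floor and is no lower bound. Its log2 ratio of -7.81 had an upper counting limit of -7.57 and was -7.25 without T-type cell 6. The log2 ratio to NR was -8.01 (-9.89 to -6.65) for S-type and -7.64 (-9.27 to -6.41) for M-type cells. No fold is given between T-type and S-type cells. Because NR cell 4 had no read, the types still overlapped, and NR and M-type were the only neighbours in the order of levels to differ by more than the larger SD (139 against 132). A gene on the other strand, 4430402I18Rik, shares exon bases with Slc1a1 and had 323 reads in NR cells 1 to 3, but also 233 in S-type cell 6, where Slc1a1 had 2. The methods do not say whether counting used the strand. The summed neuronal markers of NR cells ran from 41.9 CPM, in NR cell 1, to 374 CPM, in NR cell 5, where Slc1a1 had 2 reads.

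Slc1a4 (ASCT1), which exchanges serine, alanine and other neutral amino acids, was read in every cell. It ran from 83.5 over 1917 to 2464 in S-type and from 65.5 over 389 to 3150 in T-type cells, with 185.2, 136, 2481, 1606 and 1812 in M-type and 6537, 2032, 1948, 981 and 3615 in NR cells. Its level was highest in NR (3023 ± 2180), then S-type (1662 ± 870), M-type (1244 ± 1041) and T-type cells (1060 ± 1274), with overlap between all neighbours. The T-type to NR log2 ratio was -1.51 (-1.55 to -1.48), between -2.23 without T-type cell 5 and -1.02 without NR cell 1, and 4 of 6 T-type cells lay below every NR cell. The M-type to NR value of -1.28 was -0.79 without NR cell 1.

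Slc1a5 (ASCT2), a glutamine exchanger of dividing cells, came from a single cell in each type. S-type cell 4 had 27.2, T-type cell 5 had 73.9, M-type cell 2 had 73.5 and NR cell 1 had 149, and no other cell exceeded 1.41. The log2 ratios of the type means (1.44 for T-type to S-type, -1.29, -2.73 and -1.01 for T-type, S-type and M-type to NR) therefore follow those 4 cells. They turned to -2.31 without T-type cell 5 and to 5.26, 3.81 and 5.54 without NR cell 1.

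The first 3 carriers of the series differ in the sequence before their RefSeq start, which is shown here because Slc1a2 and Slc1a1 differed most between types and Slc1a3 was read at 867 or more in all cells. The windows come from the RefSeq promoter table (GRCm38.p6), which held 6 of the 9 genes, and leave out bases that GENCODE vM21 places in exons. Capitals mark GC boxes, whose letters are GGGCGG. They also mark CCAAT boxes (CCAAT), and likewise the box spelled TATAAA. Each was searched on both strands, so the reverse complement of each motif is in capitals as well, and in the 3 windows no marked motif overlaps another.
Slc1a2, chr2:102706188-102706355, + strand: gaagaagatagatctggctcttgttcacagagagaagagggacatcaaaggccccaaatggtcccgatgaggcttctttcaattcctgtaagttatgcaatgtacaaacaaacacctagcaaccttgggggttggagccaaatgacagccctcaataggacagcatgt
Slc1a3, chr15:8710808-8711057, - strand: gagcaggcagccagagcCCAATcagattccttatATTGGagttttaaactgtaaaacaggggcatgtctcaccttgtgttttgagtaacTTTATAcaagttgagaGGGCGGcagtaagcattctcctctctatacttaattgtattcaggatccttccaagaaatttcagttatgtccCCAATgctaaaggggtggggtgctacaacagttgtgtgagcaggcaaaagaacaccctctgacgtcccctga
Slc1a1, chr19:28834885-28835048, + strand: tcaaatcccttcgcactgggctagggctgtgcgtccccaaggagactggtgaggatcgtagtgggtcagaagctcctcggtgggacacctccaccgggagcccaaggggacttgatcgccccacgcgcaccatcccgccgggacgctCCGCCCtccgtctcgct
The Slc1a2 window held none of the 3 motifs and 1 CG pair, and it precedes a start inside the gene, whose annotated 5′ end is at position 102658659. The Slc1a3 window held 3 CCAAT boxes, 1 GC box and 1 TATAAA with 2 CG pairs, and the Slc1a1 window 1 GC box with 14 CG pairs. Of 32851 promoters cut to 250 bases, 33.8% held a CCAAT box, 32.7% a GC box and 12.4% a TATAAA, and cut to the length of the Slc1a1 window 18.6% held a GC box. These letters are a description of the windows and were not compared with the levels.

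In GENCODE vM21 (GRCm38) Slc1a2 spans 102658659 to 102790784 on chromosome 2, Slc1a3 8634124 to 8710764 on chromosome 15 and Slc1a1 28835049 to 28913960 on chromosome 19. Slc1a4 lies at 20302180 to 20332713 on chromosome 11 and Slc1a5 at 16781340 to 16798274 on chromosome 7. Glul lies at 153899944 to 153909723 on chromosome 1, Slc38a3 at 107650634 to 107669530 on chromosome 9, Slc38a1 at 96571418 to 96642913 on chromosome 15 and Glud1 at 34310727 to 34345265 on chromosome 14. All 9 are protein-coding, and their counts are exonic reads. Glud1 has a processed copy, Glud-ps, so reads shared between them are uncertain.

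Glul, the enzyme that makes glutamine from glutamate and ammonia, was read at 1065 or more in every cell. It ran from 1065 over 7719 to 17774 in S-type and from 1642 over 5016 to 57518 in T-type cells, with 1317, 3477, 2052, 9106 and 9241 in M-type and 8691, 3381, 4764, 2752 and 11903 in NR cells. The highest value was that of T-type cell 2, a cell of small size factor, and the types overlapped. In CPM that cell had 1262, under the 1659 of S-type cell 4. The T-type mean (13739 ± 21686) was 2.18-fold the NR mean (6298 ± 3892), a log2 ratio of 1.13 that turned to -0.34 without T-type cell 2 and that was -0.00 and -0.02 with CPM of pooled reads and with mean CPM. The T-type to S-type value of 0.78 likewise turned to -0.68 without that cell. S-type (7979 ± 6050) and M-type cells (5038 ± 3854) differed from NR by log2 ratios of 0.34 and -0.32, which turned to -0.07 without S-type cell 4 and to 0.04 without NR cell 5.

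Slc38a3 (SNAT3), which releases glutamine from astrocytes, had values that overlapped between the types. Its means were 681 ± 547 in NR, 602 ± 578 in M-type, 473 ± 440 in T-type and 467 ± 228 in S-type cells, and its cells ran from 25.5 in T-type cell 4 to 1591 in NR cell 5. Its log2 ratios were 0.02 for T-type to S-type and -0.52, -0.54 and -0.18 for T-type, S-type and M-type to NR. Each of the 3 NR ratios turned above 0 without NR cell 5 (0.06, 0.04 and 0.41). With mean CPM and CPM of pooled reads the T-type to NR value was -1.07 and -1.33.

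Slc38a1 (SNAT1), a glutamine carrier better known from neurons, was highest in S-type cells. These ran from 679 over 1596 to 2896, and the T-type cells from 21.8 over 436 to 2482. M-type cells had 61.9, 67.9, 228, 1309 and 95.5, and NR cells 978, 402, 1124, 1570 and 79.7. Of the 6 T-type cells, 4 lay below every S-type cell, and 4 of the 5 M-type cells were at 228 or lower, yet all types overlapped. The M-type mean (353 ± 539) was 2.36-fold lower than the NR mean (831 ± 592), a log2 ratio of -1.24 (-1.30 to -1.18), which was -2.87 without M-type cell 4 and -0.87 without NR cell 4. The S-type mean (1577 ± 819) exceeded the NR mean by a log2 ratio of 0.92 (0.63 to 1.29 on leaving out 1 cell), and the T-type mean (829.3 ± 963) differed from it by a log2 ratio of -0.00, which was -0.74 without T-type cell 1 and -1.17 with medians over cells.

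Glud1, which feeds glutamate into the tricarboxylic acid cycle, ran from 2466 over 8467 to 13809 in S-type and from 468 over 8551 to 45736 in T-type cells. M-type cells had 2938, 12909, 9305, 9343 and 10697 and NR cells 10727, 9137, 2746, 2024 and 19133. The medians of all types lay between 8467 and 9343. The means were 13275 ± 16613 in T-type, 9038 ± 3712 in M-type, 8753 ± 6949 in NR and 7944 ± 3924 in S-type cells. The T-type log2 ratios of 0.74 to S-type and 0.60 to NR turned to -0.23 and -0.37 without T-type cell 4.

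**Figure D3:**
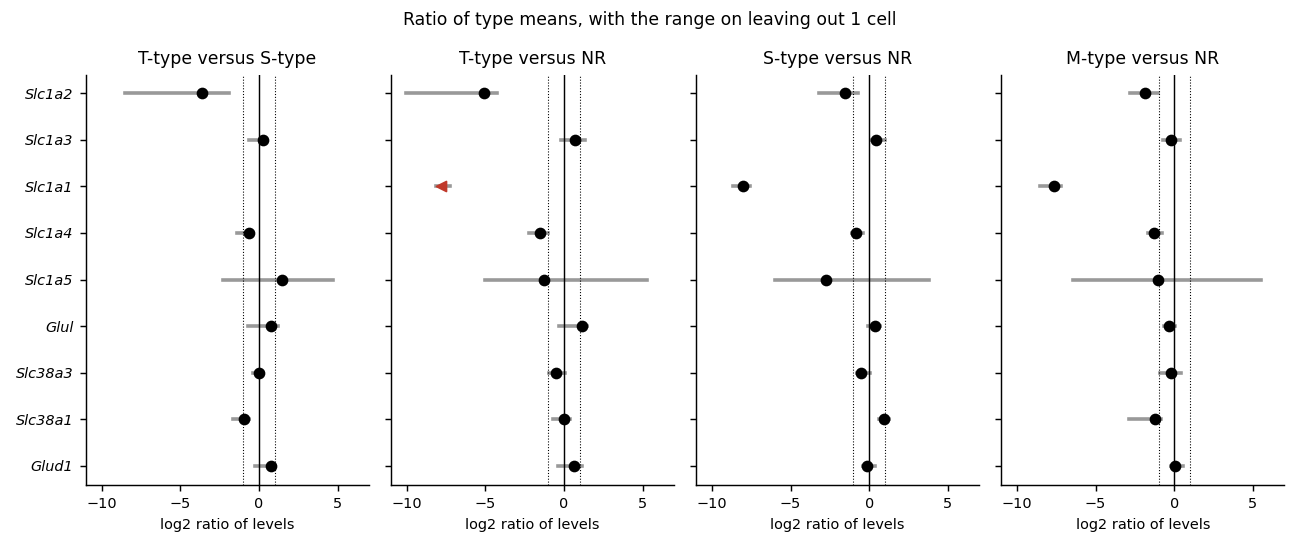
Log2 ratio of type means (horizontal axis) for each gene (rows) in 4 contrasts (panels), with a point for all cells and a grey line for the range on leaving out each cell in turn. The arrowhead for Slc1a1 in T-type versus NR marks a ratio in which 0 T-type reads were set to the floor. Its T-type to S-type ratio is not drawn, and dotted lines mark a 2-fold difference. Slc1a2 and Slc1a4 stay below 0 in all 4 panels, whereas the lines of Slc1a5 cross 0 in each.

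Per kilobase of exon and over all 22 cells, the mean levels were 2558 for Glul, 2335 for Glud1 and 1769 for Slc1a3, then 436 for Slc1a4, 309 for Slc1a2, 104 for Slc38a3, 53.7 for Slc38a1, 3.88 for Slc1a1 and 3.56 for Slc1a5. Slc1a1 was read in 8 cells and Slc1a5 in 7, and the other 7 genes in all 22. With every cell thinned to 2937786 reads, Slc1a2 was read in 20 cells and Slc1a1 and Slc1a5 in 4 each, so an absent read of the last pair is not the absence of the transcript.

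In T-type versus S-type cells, 1 of the 9 genes was at least 2-fold higher (Slc1a5), beside 26% of all genes compared, and 1 was at least 2-fold lower (Slc1a2), beside 32.2%. No gene of the 9 had cells that did not overlap between these types, beside 0.771% of all genes. The median log2 ratio was 0.20 over the 9 genes, with Slc1a1 at its floor, 0.15 over the other 8 and -0.07 over all genes.

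In T-type versus NR cells, 1 of the 9 genes was at least 2-fold higher (Glul; all genes 28.6%), and 4 were at least 2-fold lower (Slc1a2, Slc1a1, Slc1a4 and Slc1a5), beside 32.4% of all genes. None of the 9 was without overlap, beside 0.991%. The median was -0.52 over the 9 genes, -0.26 without Slc1a1 and -0.05 over all genes. With mean CPM in place of size factors the median of all genes moved to -0.45 in this contrast and to -0.44 in T-type versus S-type cells, and that of the 9 genes to -1.07 and -0.51.

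In S-type versus NR cells, 0 of the 9 genes were at least 2-fold higher, beside 25.1% of all genes, and 3 were at least 2-fold lower (Slc1a2, Slc1a1 and Slc1a5), beside 22.4%. None was without overlap, beside 0.409%. In M-type versus NR cells, 0 of 9 were at least 2-fold higher (all genes 19.8%) and 5 at least 2-fold lower (Slc1a2, Slc1a1, Slc1a4, Slc1a5 and Slc38a1), beside 28.1%, with none without overlap, beside 0.598%. The medians over the 9 genes were -0.54 and -1.01, and those over all genes 0.03 and -0.20. The 3 contrasts with NR share the same 5 NR cells, so the lower values in them are not separate observations.

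Between pairs of the 9 genes over the 22 cells, 28 of 36 Spearman rho values were above 0 and 4 reached 0.5. The highest was that of Slc1a2 with Slc1a1 (rho = 0.68, r = 0.47, and rho = 0.63 without the T-type cells). Slc1a1 went with Slc1a5 at rho = 0.53 (r = 0.36), though these 2 genes were read in only 8 and 7 cells. Slc1a2 went with Slc1a3 at rho = 0.53 (r = 0.39, and 0.46 without the 2 cells farthest in Slc1a2) and with Slc38a3 at rho = 0.53 (r = 0.48, and 0.69 without them). Without the T-type cells (n = 16) Slc1a2 went with Glul at rho = 0.67 and with Glud1 at rho = 0.69, against 0.24 and 0.39 over all 22 cells. Slc38a1 went with Slc38a3 at rho = -0.35 (r = -0.28, and -0.59 without the 2 farthest cells), and at rho = -0.14 without the T-type cells. These points share the size factor of each cell, and 108 such correlations were computed on the log2 scale without a test.

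Several of the 9 genes moved with the summed markers of a cell type. The log2 level of Slc1a2 went with the summed astrocyte markers at r = 0.66 and rho = 0.74 (r = 0.67 without the 2 farthest cells, rho = 0.77 in the 16 cells outside the T-type) and with the summed mural cell and fibroblast markers at r = -0.46 and rho = -0.44 (r = -0.62 without the 2 farthest cells). Slc1a3 went with the astrocyte markers at r = 0.60 and rho = 0.64 (r = 0.51 without the 2 farthest cells) and with the mural cell and fibroblast markers at r = -0.57 and rho = -0.58 (r = -0.63). Glul went with the latter at r = -0.52 and rho = -0.40 (r = -0.30). S-type cell 5 and T-type cells 1 and 5, with 7410, 4710 and 4245 CPM of the mural cell and fibroblast list, had 20.4, 11.3 and 2.59 of Slc1a2. T-type cell 2, with 95.4 CPM of that list, had 7.25 of Slc1a2. The part of these markers in the T-type value was not tested.

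**Figure D4:**
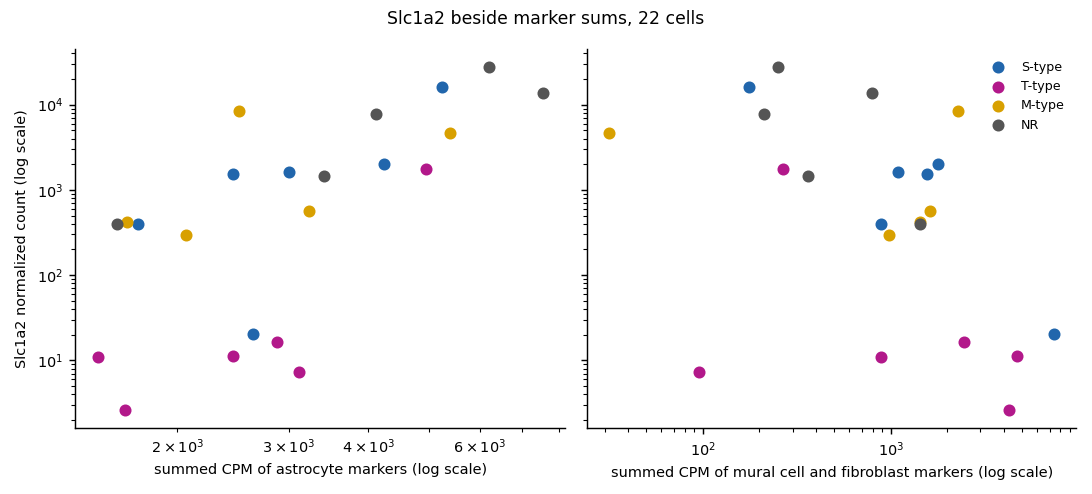
Normalized count of Slc1a2 (vertical axis, log scale) against the summed CPM of 14 astrocyte markers (left) and 8 mural cell and fibroblast markers (right; both log scale), 1 point per cell, coloured by response type. The sum on the right is mostly Acta2. The T-type points with 2.59 to 16.7 of Slc1a2 span 1497 to 3111 CPM of astrocyte markers, a range that holds 1 of the 5 NR cells. It also holds S-type and M-type cells, which had from 20.4 (S-type cell 5) to 8470 (M-type cell 2) of Slc1a2.

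A search of 11845 genes (mean level of 10 or higher) found as those most like Slc1a2 over the 22 cells Slc16a1, a monocarboxylate carrier (rho = 0.82), Ptprn2 (0.79) and Plxnb1 (0.79). Those most like Slc1a3 were Mlc1 (0.74), Ppargc1a (0.73) and Nek9 (0.72). For Glul they were Mpp1 (0.75), Aldoc (0.74), the aldolase of astrocytes, and Chmp1b (0.70), and for Glud1 Mboat2 (0.85), Fabp7 (0.79), the lipid-binding protein of radial glia and young astrocytes, and Whsc1l1 (0.78). For Slc1a4 they were 3110099E03Rik (0.83), 3230401D17Rik (0.80) and Nmnat3 (0.74), for Slc38a1 Sox12 (0.77), Specc1l (0.75) and Mroh1 (0.75), and for Slc38a3 Cdk17 (0.73), Llgl2 (0.71) and Prr14 (0.71). Each is the top of a search, so the values are the highest of many and carry no test.

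The other genes of the pathway were taken from 10 lists with 47 symbols, of which 42 could be compared. In T-type versus S-type cells 16 were at least 2-fold higher and 5 at least 2-fold lower, beside 26% and 32.2% of all genes compared. In T-type versus NR cells they were 11 and 12, beside 28.6% and 32.4%. In S-type versus NR cells they were 4 and 12, beside 25.1% and 22.4%, and in M-type versus NR cells 5 and 14, beside 19.8% and 28.1%.

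The sodium gradient that drives glutamate uptake is kept by the sodium pump, and potassium leaves through Kcnj10. Of these 6 genes, 4 were at least 2-fold lower in M-type than in NR cells, beside 28.1% of all genes, and 0 at least 2-fold higher, beside 19.8%. Atp1b2, a beta subunit of the pump that glia express, had a log2 ratio of -2.50 (-2.92 to -2.18 on leaving out 1 cell). All 5 M-type cells had less Atp1b2 (1.25 to 365) than any NR cell (419 to 1434). Of all genes compared, 0.598% had M-type and NR cells that did not overlap, in either direction. Atp1b1 and Atp1b3 were 2-fold or more under NR in S-type (-1.21 and -1.20) and M-type cells (-1.11 and -1.41), though 3 of these 4 values were within 2-fold without NR cell 5.

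Of 5 other SLC38 carriers, 4 were at least 2-fold lower in T-type than in NR cells, beside 32.4% of all genes, and 3 in M-type cells, beside 28.1%. Without NR cell 5 each of these counts was 1. In T-type to NR cells the log2 ratio of Slc38a2 was -1.06, and -0.19 without that cell, that of Slc38a6 was -1.22 and turned to 0.11, that of Slc38a7 was -1.65 and became -0.79, and that of Slc38a10 was -2.55 and became -1.38. Slc38a6 in T-type cells was -4.58 without T-type cell 2. In M-type to NR cells Slc38a2 had -1.26, Slc38a6 -3.84 and Slc38a10 -1.74, which were -0.39, -2.51 and -0.57 without NR cell 5.

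Of the transaminases, Gpt2 had a log2 ratio of 5.99 in T-type to NR cells that was -0.17 without T-type cell 2, which held 98.8% of the T-type total, and 7.17 without NR cell 2. Dld, a subunit shared by the 2-oxoglutarate dehydrogenase complex that follows Glud1, had 2.72, which was -0.63 without the same cell. Bcat1 had 1 read in NR cells and 34 in T-type cells, a log2 ratio of 6.17 (counting interval 3.60 to 11.52), which was 3.65 without T-type cell 4. The other types also exceeded NR in Bcat1, with 6.60 in S-type (79 reads) and 5.57 in M-type cells (56 reads). Its T-type to S-type value was -0.43. The mitochondrial glutamate carrier Slc25a18 had 2.19 in M-type to NR cells (1.76 to 2.81 on leaving out 1 cell). Slc7a11, the cystine and glutamate exchanger, had -6.49 in M-type to NR cells, which was -3.21 without NR cell 1 and -8.00 without M-type cell 3.

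Sept2, a septin that binds glutamate carriers, had a log2 ratio of 2.09 in T-type to S-type (1.31 without T-type cell 2) and 3.25 in T-type to NR cells (2.46 to 3.49 on leaving out 1 cell), and 4 of 6 T-type cells lay above every NR cell. The S-type to NR value of Sept2 was 1.15 (0.91 without NR cell 3), and 4 of 6 S-type cells also lay above every NR cell. In M-type to NR cells it was 0.74, and 2 of 5 M-type cells lay above every NR cell. Of 9 enzymes that consume glutamine, 6 were at least 2-fold higher in T-type than in S-type cells, beside 26% of all genes, and 1 at least 2-fold lower, beside 32.2%. Pfas, of purine synthesis, had 1.72 (1.14 to 2.22 on leaving out 1 cell). The other 5 each fell within 2-fold or changed sign without 1 T-type cell, with 0.44 for Asns without cell 6, -3.11 for Gfpt2 without cell 4, -0.92 for Ppat and 0.59 for Cad without cell 3, and -0.19 for Gmps without cell 5. Nadsyn1 had 2 reads in T-type and 500 in S-type cells, a log2 ratio of -7.69 (counting interval -10.74 to -5.83), which was -9.11 without T-type cell 1 and -6.26 without S-type cell 1. In T-type versus NR cells, 3 of the 9 enzymes were at least 2-fold higher, beside 28.6% of all genes, and 2 at least 2-fold lower, beside 32.4%. Pfas was among the lower, at -1.23, which turned to 1.01 without NR cell 5.

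**Figure D5:**
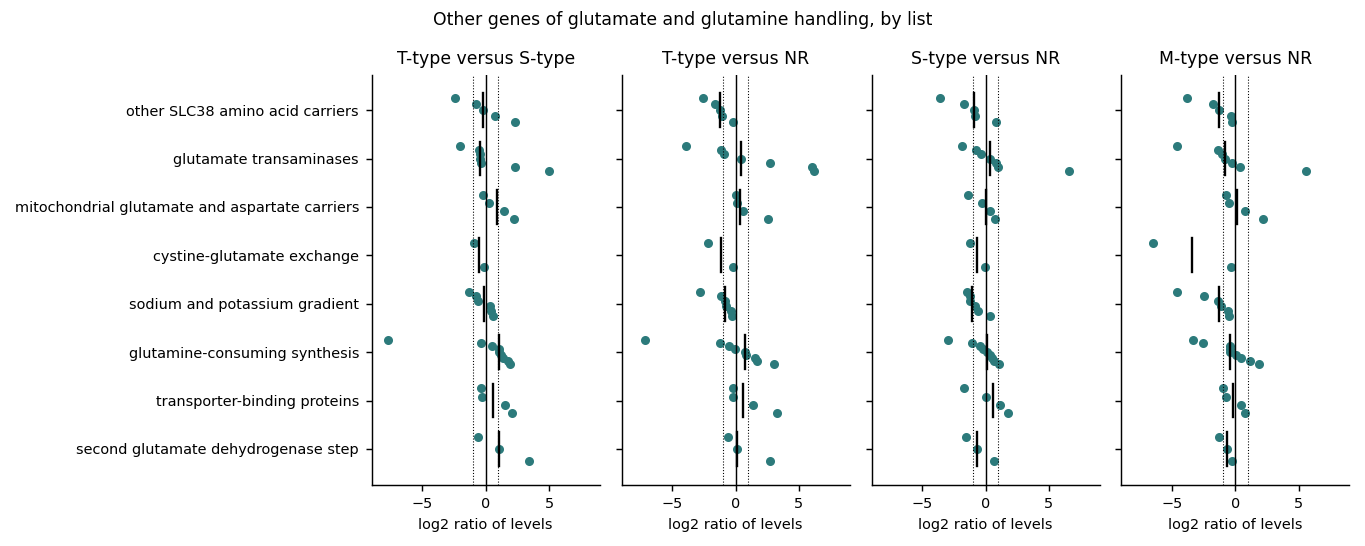
Log2 ratio of type means (horizontal axis) for compared genes of the pathway lists (rows) in 4 contrasts (panels), 1 point per gene, with a bar at the median of the list and dotted lines at a 2-fold difference. In M-type versus NR cells the list of the sodium and potassium gradient has a median of -1.26, with all 6 points below 0.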

How the data were processed

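The authors amplified the RNA of each cell in 2 rounds of antisense RNA synthesis, sequenced stranded libraries, aligned the reads to GRCm38 with STAR and counted exonic reads per gene. The paper names VERSE for counting and the submitters' processing notes name HTSeq, versions are not given in the sources used here, and no molecular identifiers were used. The deposited values are raw counts, 1 column per cell.

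Size factors were medians of ratios, taken over 3670 genes that were read in all cells (NumPy 2.4.6, pandas 2.3.3, Python 3.11.15). The level of a type was the mean normalized count of its cells, and a level of 0 was set to a floor of 3 reads over the type. Genes with a read in at least 5 of 22 cells were compared, and a difference of at least 2-fold was counted. Intervals are exact binomial splits of reads at 95% (SciPy 1.17.1) and cover counting error only. With 1 sample per type no p-value was computed. The arithmetic of the ratios was checked on simulated counts in which cells of a type differed by size factor and counting error only. That check does not cover the spread between real cells.

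All 9 genes are named, with list genes at least 2-fold apart in a contrast and the 3 most alike by Spearman rho. The 9 genes and the lists were chosen with earlier results of these data known. Alternatives were CPM, TMM factors (edgeR 4.0.16), thinning, medians, a pseudocount of 1, other filters and leaving out cells. Some genes of the lists are not reported here.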

Additional observations from a re-analysis of the deposited data

Results flagged for a closer look

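In 8 of 35 groups of values (1 gene in 1 response type), the highest or lowest cell stood apart by Dixon's criterion on the log2 scale. Chance meets this criterion in about 1 of 20 groups of normally distributed values, which sparse counts are not. A group with reads in a single cell and 0 in the others meets it in any case. The 8 groups are therefore not set against that rate. Slc1a2 was 1740 in T-type cell 3, from 319 reads, and at most 16.7 in the other T-type cells. Slc1a1 was 3.50 in M-type cell 2, from 5 reads, and 0 in the other M-type cells. Slc1a4 was 83.5 in S-type cell 2, and at least 1328 in the other S-type cells. Slc1a5 was 27.2 in S-type cell 4, 73.9 in T-type cell 5, 73.5 in M-type cell 2 and 149 in NR cell 1, so all 4 types had such a cell. Glud1 was 2938 in M-type cell 1, and at least 9305 in the other M-type cells.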

How the results depend on the processing

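Of 222 counts of genes under an alternative, 179 stayed within 1.5 times the count reported. Genes at least 2-fold higher in T-type than in S-type cells numbered 0 with thinned reads and with medians over cells, and those at least 2-fold lower 3 with CPM of pooled reads, 2 with mean CPM, 2 with thinned reads and 4 with medians. The count of 1 (Glul) at least 2-fold higher in T-type than in NR cells was 0 with CPM of pooled reads, mean CPM, TMM factors, thinned reads and medians. The count at least 2-fold lower in M-type than in NR cells was 3 with medians. Without T-type cells 2 and 3, an alternative added after the data had been seen, the T-type counts were 2 higher and 3 lower against S-type and 0 higher against NR, and Slc1a2 was the 1 gene without overlap in each contrast. Leaving out 1 cell gave 1 to 2 higher and 1 to 3 lower in T-type versus S-type, 0 to 3 higher in T-type versus NR, 0 to 2 higher in S-type versus NR, and 0 to 1 higher and 3 to 5 lower in M-type versus NR cells. Genes without overlap ranged from 0 to 1 in the first 3 contrasts on leaving out 1 cell. They were Slc1a2 without T-type cell 3 and Slc1a1 without NR cell 4. In each case the gap follows from leaving out the only cell in its way, and the matching share of all genes was not computed. Of 15 log2 ratios of at least 2-fold, 259 values under alternatives included 9 of the other sign, all of Slc1a5 and Glul. Slc1a5 in T-type versus NR was 0.13 with medians, and on leaving out 1 cell it ran from -5.04 to 5.26, with -2.31 to 4.70 for T-type versus S-type, -5.99 to 3.81 for S-type versus NR. In M-type versus NR cells it ran from -6.42 to 5.54. Glul in T-type versus NR was -0.0022 with CPM of pooled reads, -0.022 with mean CPM, -0.11 without T-type cells 2 and 3, and -0.34 to 1.49 on leaving out 1 cell. The causes were not tested. No paired analysis was possible because replicate numbers only name cells and no test was made. Slc1a1 and Slc1a5 were read in fewer cells after thinning, so their absent reads do not show whether the transcripts are absent.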
